A study of Mus musculus with 7 samples.

Results

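The cadherins and protocadherins were taken as every gene in the deposited tables named Cdh followed by a number or beginning with Pcdh, which gave 85 of 16143 genes. They comprised 15 classical cadherins (5 of type I and 10 of type II), 3 other cadherins, 56 clustered protocadherins (13 Pcdha, 21 Pcdhb and 22 Pcdhg genes) and 11 other protocadherins. Transcript levels of these genes were compared between EGFP-sorted retinal cells that had received an shKmt2f plasmid (4 libraries) and cells that had received a control plasmid (3 libraries). Kmt2f is another name of Setd1a, a methyltransferase for lysine residues of histone H3, and shKmt2f denotes a short hairpin RNA directed against it. All retinas came from mice of the outbred ICR stock at embryonic day 17.5, were electroporated with 1 of the plasmids together with an EGFP plasmid, and were kept as explants for 2 days before EGFP-positive cells were sorted. Neither the promoters of the plasmids nor the hairpin sequence is given in the sources used here. Separate animals or cultures for the libraries are not stated in the labels, and p-values therefore reflect library-to-library variation that may be technical. Levels are in TPM, which corrects for transcript length and gives shares within a library. A gene's TPM is the sum over its listed transcripts.

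Cadherins are calcium-dependent adhesion proteins of the plasma membrane. Classical cadherins bind the same or related cadherins on neighbouring cells and are linked through catenins to the actin cytoskeleton, and N-cadherin, encoded by Cdh2, is the main one of the neural retina. Clustered protocadherins are encoded by tandem arrays of genes or first exons, each with its own promoter, and a neuron uses a subset of them, so that cells differ in the combination they carry. The Pcdha and Pcdhg variable exons are spliced to constant exons shared within the cluster, whereas Pcdhb genes are typically encoded by a single exon. CTCF and cohesin connect these promoters to distal enhancers, and in the mouse retina the Pcdhg genes are known for self-avoidance of starburst amacrine cell dendrites and for survival of inner neurons.

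The libraries set limits that apply to every result on these genes. Between 11840 and 12318 genes reached 1 TPM in a library, and TPM keeps no sequencing depth. The longest transcript of Setd1a stood at 0.407, 0.328, 0.374 and 0.432 TPM in the shKmt2f libraries, against 0.767, 0.959 and 0.764 TPM in the control libraries (exact permutation test, two-sided, p = 0.0286, the smallest p that 4 against 3 allows). This transcript was a minor part of the gene's TPM, averaging 0.385 of 6.94 TPM in the shKmt2f libraries and 0.830 of 8.95 TPM in the control libraries. The summed TPM of Setd1a was 8.26, 7.997, 4.501 and 6.99 in the shKmt2f libraries, against 11.7, 7.83 and 7.36 in the control libraries. Its groups overlapped, and it did not pass the test across genes (limma, adjusted p = 0.365). Genes of low GC content stood apart between the groups, and control replicate 2 lay near the shKmt2f libraries in these genes. When the tested genes were divided into 5 equal groups by GC content, then in the group of lowest GC content, with cadherins and protocadherins left out, the median deviation from each gene's mean over the libraries was 0.24, 0.29, 0.14 and 0.24 on the log2 scale in the shKmt2f libraries, against -0.51, 0.065 and -0.42 in the control libraries. Transcript GC content, or a value corrected for it, is therefore given beside several of the results.

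Of the 85 genes, 51 reached at least 1 TPM in at least 3 libraries and were tested together with all other such genes, 12456 in all, with limma on log2(TPM + 1) and Benjamini-Hochberg adjustment. Fold changes are shKmt2f minus control on that scale, which understates changes of genes of low level, and a gene is said to have risen or fallen when its adjusted p was under 0.05. Among the 51, 11 rose and none fell. Over all tested genes, 10.4% rose and 3.69% fell. Of the 51, 5 had no control library at 1 TPM and passed the filter on low values through the shKmt2f libraries alone, among them Pcdha11, Pcdhb3 and Pcdhgb4. With genes of a control mean under 1 TPM left out, 8 of 39 rose, 6 of 13 in the Pcdhb cluster, 2 of 6 among the classical cadherins and none of 9 in the Pcdhg cluster, beside 10.1% of all such tested genes. The 11 genes were 7 of the 17 tested Pcdhb genes (Pcdhb3, Pcdhb6, Pcdhb10, Pcdhb11, Pcdhb16, Pcdhb17 and Pcdhb21), Pcdhgb4 among 13 tested Pcdhg genes, Pcdha11, the only Pcdha gene tested, and Cdh2 and Cdh11 among 8 classical cadherins. None of the 10 tested protocadherins outside the clusters and neither of the 2 other cadherins passed. By mean level alone, 73 of the 85 genes were higher in the shKmt2f libraries. Every shKmt2f library lay above every control library in 25 of the 85, 29.4%, against 16.4% of all genes in the tables, and among the 34 too low to test it did so in 10, beside 7.08% of all untested genes. The median fold change was 0.39 over the 51 genes, against 0.09 over all tested genes. With median-ratio scaling of the libraries the median over all genes was -0.02 and that over these genes 0.30, and 11 of them again rose, the same genes. Over all genes 73.8% of the calls were higher in shKmt2f, against 56.6% under that scaling.

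These calls depended on single libraries and on GC content. Without control replicate 1 none of these genes passed, nor did any without shKmt2f replicate 1 or without shKmt2f replicate 2. Few genes rose at all in these settings, in this order 144 of 12406, 147 of 12364 and 166 of 12350 tested. Only Pcdhb10 passed without control replicate 3, only Pcdhb6 without shKmt2f replicate 3 and only Pcdha11 without shKmt2f replicate 4. Beside them 220 of 12367, 350 of 12389 and 303 of 12345 tested genes rose. Without control replicate 2, by contrast, 15 of 50 tested rose, beside 2432 of 12374 tested genes. The number of calls over all tested genes moved likewise, between 283 and 3004, against 1755 with all libraries. After a loess correction of each library for GC content, 1 of the 51 genes rose (Pcdha11) and none fell, beside 4.25% of all tested genes that rose and 3.28% that fell. After correction for GC content and then length, Pcdha11 rose (log2 fold change 1.17, adjusted p = 0.0481) and Pcdh17 fell (log2 fold change -0.57, adjusted p = 0.049998), beside 3.14% of genes that rose and 2.47% that fell.

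**Figure D1:**
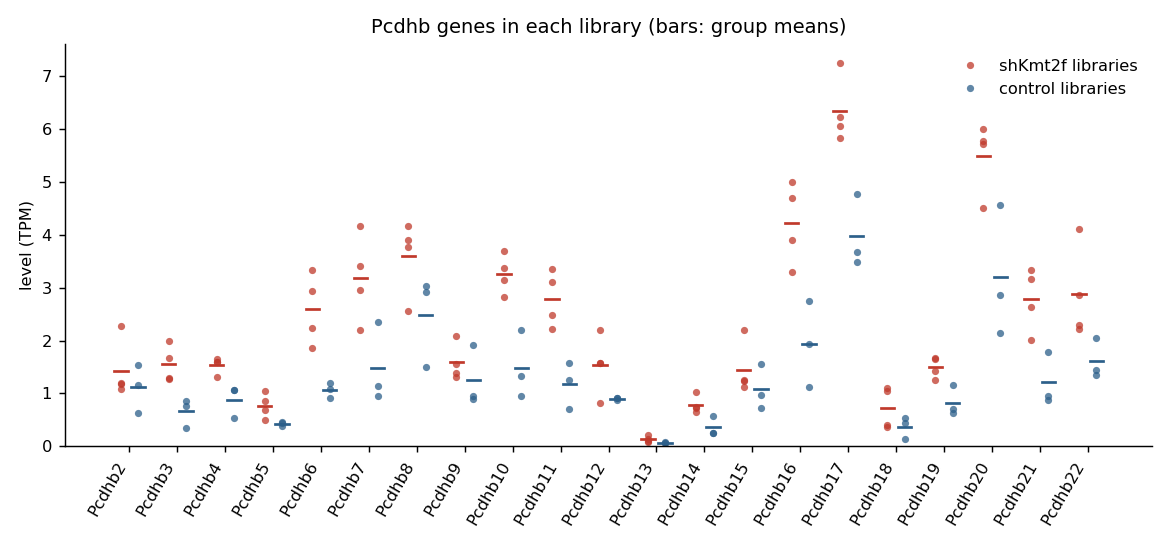
Level in TPM (vertical axis) of each of the 21 Pcdhb genes (horizontal axis) in the 4 shKmt2f libraries (red, left of each pair) and the 3 control libraries (blue), with short bars at the group means. The red mean lies above the blue mean for all 21 genes, and for 12 of them every red point lies above every blue point.

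The Pcdhb genes lie on chromosome 18 of GRCm38 between positions 37294812 and 37524479, on the plus strand, and encode protocadherins that lack the shared cytoplasmic part of the other clusters. All 21 had a higher mean in the shKmt2f libraries, by factors between 1.27 and 2.44 with a median of 1.83. Their summed level was 53.4, 55.5, 43.4 and 48.5 TPM in the shKmt2f libraries, against 20.6, 34.3 and 27.8 TPM in the control libraries. Thus the lowest shKmt2f library lay above the highest control library, control replicate 2. The summed level averaged 50.2 ± 5.401 TPM in the shKmt2f libraries and 27.6 ± 6.87 TPM in the control libraries as mean ± SD of 4 and 3 libraries, a ratio of 1.82. Each of the 17 tested Pcdhb genes had a positive fold change, from 0.20 to 0.86 with a median of 0.57. The median was 0.47 with median-ratio scaling, again with all 17 positive. In bulk RNA of sorted cells, a larger share of cells using a gene and more RNA per cell cannot be told apart.

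Pcdhb17 had the highest mean level of the cluster, at 6.06, 7.25, 5.84 and 6.22 TPM in the shKmt2f libraries, against 3.49, 4.76 and 3.68 TPM in the control libraries. The groups did not overlap, and its fold change was 0.57 ± 0.15 (SE), adjusted p = 0.0439. Pcdhb16 stood at 4.997, 4.69, 3.305 and 3.89 TPM in the shKmt2f libraries, against 1.13, 2.75 and 1.93 TPM in the control libraries. It had the largest fold change of the cluster (0.86 ± 0.22 (SE), adjusted p = 0.03803), and its highest control library, replicate 2, was below its lowest shKmt2f library.

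Pcdhb6, Pcdhb10 and Pcdhb11 were the Pcdhb genes with the smallest adjusted p. Pcdhb6 stood at 2.24, 2.94, 1.86 and 3.34 TPM in the shKmt2f libraries, against 1.09, 0.9100 and 1.19 TPM in the control libraries. All 3 control libraries lay close to 1 TPM and below every shKmt2f library, with a fold change of 0.78 ± 0.18 (SE), adjusted p = 0.0299. For Pcdhb10 the levels were 3.69, 3.37, 3.14 and 2.83 TPM in the shKmt2f libraries, against 1.32, 0.942 and 2.19 TPM in the control libraries. Its highest control library was replicate 3, whereas replicate 2 was the lowest, and the fold change was 0.80 ± 0.19 (SE), adjusted p = 0.0326. Pcdhb11 had 3.35, 3.11, 2.23 and 2.48 TPM in the shKmt2f libraries, against 0.709, 1.57 and 1.25 TPM in the control libraries. Its lowest shKmt2f library, replicate 3, lay above control replicate 2, the highest control library, and the fold change was 0.81 ± 0.19 (SE), adjusted p = 0.0313.

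The other 2 Pcdhb genes that rose were of low to middling level. Pcdhb21 had 3.34, 3.17, 2.004 and 2.64 TPM in the shKmt2f libraries, against 0.884, 1.79 and 0.954 TPM in the control libraries. Its lowest shKmt2f library, replicate 3, lay just above its highest control library, replicate 2, and its fold change was 0.79 ± 0.20 (SE), adjusted p = 0.03803. Pcdhb3 had 1.67, 1.995, 1.28 and 1.28 TPM in the shKmt2f libraries, against 0.346, 0.7697 and 0.862 TPM in the control libraries. No control library reached 1 TPM and every shKmt2f library did, so this gene passed the filter on low values through the shKmt2f libraries alone (0.63 ± 0.18 (SE), adjusted p = 0.0477). In 3 further tested Pcdhb genes the groups did not overlap but the test was not passed. Pcdhb4 stood at 1.599, 1.597, 1.65 and 1.31 TPM in the shKmt2f libraries, against 0.534, 1.06 and 1.06 TPM in the control libraries (0.44 ± 0.16 (SE), adjusted p = 0.0922). Pcdhb19 stood at 1.68, 1.65, 1.43 and 1.25 TPM in the shKmt2f libraries, against 0.7003, 0.624 and 1.15 TPM in the control libraries (0.46 ± 0.16 (SE), adjusted p = 0.0774). Pcdhb22 stood at 2.87, 4.12, 2.29 and 2.23 TPM in the shKmt2f libraries, against 1.44, 2.04 and 1.34 TPM in the control libraries (0.55 ± 0.20 (SE), adjusted p = 0.0955). The annotated transcripts of Pcdhb21 and Pcdhb22 overlap by 455 bases on the same strand, so reads from this stretch could be assigned to either gene.

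The remaining 7 tested Pcdhb genes, Pcdhb2, Pcdhb7, Pcdhb8, Pcdhb9, Pcdhb12, Pcdhb15 and Pcdhb20, had overlapping groups. The 4 Pcdhb genes too low to be tested were Pcdhb5, Pcdhb13, Pcdhb14 and Pcdhb18, and in Pcdhb5 and Pcdhb14 every shKmt2f library lay above every control library. Counted over the cluster, every shKmt2f library was above every control library in 12 of 21 Pcdhb genes, 57.1%, and in none was it the reverse. Over the tested genes the groups were apart in this way in 19.2% of genes. Leaving out 1 library at a time gave between 12 and 16 Pcdhb genes, and the share over all genes in the tables, 16.4% with all libraries, was then between 17.9% and 27.5%, highest without control replicate 2, where the 16 were found. Control replicate 1 had the lowest level of all 7 libraries in 13 of the 21 genes and control replicate 2 in 4, whereas shKmt2f replicates 1 and 2 had the highest in 8 genes each. Of the 21 Pcdhb genes, between 16 and 19 reached 1 TPM in an shKmt2f library, against 7, 12 and 12 in the control libraries.

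**Figure D2:**
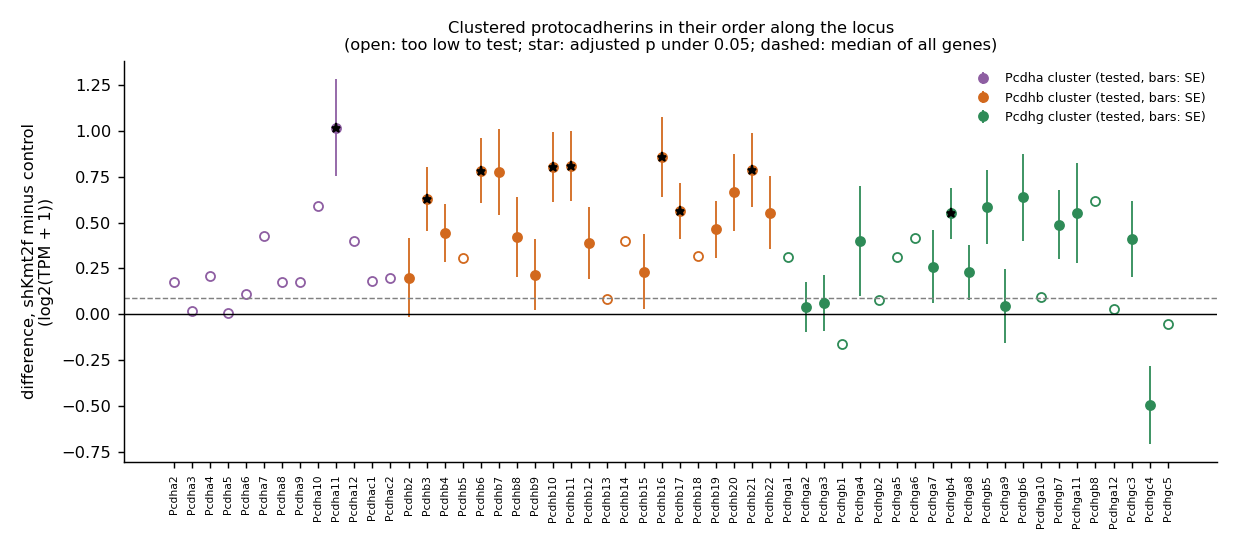
Difference between the shKmt2f and control means of log2(TPM + 1) (vertical axis) for the 56 clustered protocadherins in their order along chromosome 18 (horizontal axis). Filled points with bars are tested genes with their SE, open points are genes too low to be tested, stars mark an adjusted p under 0.05, and the dashed line is the median of all tested genes, 0.09. All Pcdha and Pcdhb points lie above 0 (Pcdhb19 turns to -0.010 after correction for GC content), and Pcdhgc4, near the end of the locus, lies at -0.49.

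Pcdhb transcripts had a median GC content of 46.4%, against 50.4% over all tested genes. Of the 5 groups of tested genes by GC content, 29.4% of genes rose in the lowest, 13.2% in the next and 5.42% in the middle one. In these 3 groups 4 of 6, 3 of 9 and none of 2 Pcdhb genes rose. The median fold change of the Pcdhb genes was 0.73, 0.44 and 0.47 in the 3 groups, against 0.51, 0.22 and 0.08 for all genes of the same groups. After correction for GC content 16 of the 17 Pcdhb genes kept a positive fold change with a median of 0.38, and none passed the test. After correction for GC content and length 15 were positive with a median of 0.25, against 0.07 over all genes, and none passed. The part of GC content in the Pcdhb result was not tested beyond these corrections.

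**Figure D3:**
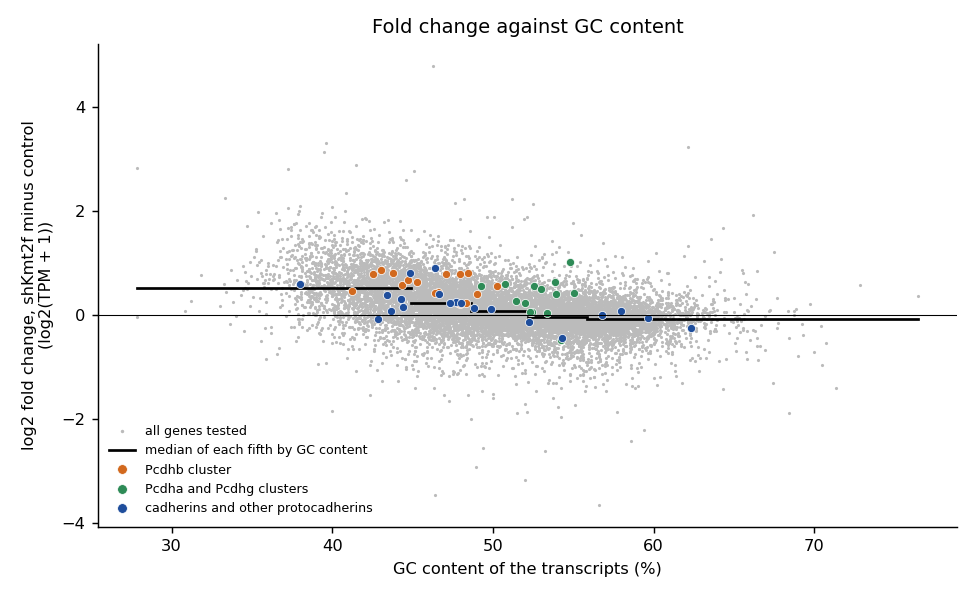
Log2 fold change, shKmt2f minus control (vertical axis), against the GC content of a gene's transcripts in percent (horizontal axis) for the tested genes (grey), with the median of each of 5 equal groups by GC content as a black line and the Pcdhb genes (orange), the Pcdha and Pcdhg genes (green) and the cadherins and other protocadherins (blue) on top. The black line lies at 0.51 for the lowest GC content and at -0.08 for the highest, and the orange points lie at the low end of GC content.

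The Pcdha genes lie upstream of the Pcdhb genes, between 36939205 and 37187661 on chromosome 18, and were scarcely detected. Of the 13 genes, 12 stayed under the filter. Their summed level was 5.86, 6.41, 5.82 and 4.04 TPM in the shKmt2f libraries, against 0.929, 2.56 and 1.54 TPM in the control libraries, and the groups did not overlap. All 13 had the higher mean in the shKmt2f libraries. In 6 of the 13, all of them too low to be tested, every shKmt2f library lay above every control library, against 16.4% of all genes and 7.08% of untested genes. Pcdha11 stood at 2.14, 2.42, 2.24 and 0.8286 TPM in the shKmt2f libraries, against 0.103, 0.852 and 0.326 TPM in the control libraries. Its groups overlapped, since shKmt2f replicate 4 lay below control replicate 2, and its fold change of 1.02 ± 0.26 (SE), adjusted p = 0.0398, was the largest of all these genes. No control library reached 1 TPM, so its place among the tested genes, also after the corrections for GC content, came from the shKmt2f libraries alone. A 625-base annotated protein-coding transcript made up 72.3% of its TPM, with 1.701, 1.83, 1.86 and 0.434 TPM in the shKmt2f libraries, against 0, 0.624 and 0 TPM in the control libraries (exact permutation test, two-sided, p = 0.0857). In the authors' deposited table q for this 625-base transcript was 0.0849. When only transcripts of at least 1000 bases were summed, a setting chosen after seeing the data, Pcdha11 was too low to be tested. Another gene, chosen after its values were seen, is called Pcdha10 in the tables and bears an identifier (ENSMUSG00000007440) that GENCODE release M21 names Pcdha11. It stood at 0.885, 0.943, 0.617 and 0.395 TPM in the shKmt2f libraries, against 0.103, 0.0962 and 0.175 TPM in the control libraries. In the authors' deposited table its transcript had an effect of 1.63 on a natural log scale and q = 2.45e-07.

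Genes of the Pcdha and Pcdhg clusters share their 3' constant exons, and assignment of reads among them is uncertain. A median of 61.3% of the 31-base words of a Pcdha gene's transcripts occurred in another of the 85 genes, and 46.0% for Pcdhg genes. For Pcdhb genes it was 11.96%, with a range from 4.89% to 22.5%, so that most of a Pcdhb transcript was its own. The cadherins and the protocadherins outside the clusters shared under 1% with any other of these genes.

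The Pcdhg genes, between 37661793 and 37841873 on chromosome 18, reached a summed level of 51.7, 57.7, 44.6 and 41.9 TPM in the shKmt2f libraries, against 30.1, 36.9 and 52.1 TPM in the control libraries. Control replicate 3 lay above 3 of the 4 shKmt2f libraries at 52.1 TPM, so the groups overlapped. By type, the ratio of the means was 1.72 for the 7 Pcdhgb genes, 1.35 for the 12 Pcdhga genes and 0.994 for the 3 Pcdhgc genes. Pcdhgb4 stood at 1.58, 1.73, 1.48 and 1.73 TPM in the shKmt2f libraries, against 0.577, 0.899 and 0.925 TPM in the control libraries. The groups did not overlap, and the gene rose by 0.55 ± 0.14 (SE), adjusted p = 0.0378, though no control library reached 1 TPM. A processed transcript of 3682 bases, without an annotated reading frame, held 93.2% of its TPM. Pcdhgb5 stood at 1.26, 1.598, 1.14 and 1.56 TPM in the shKmt2f libraries, against 0.217, 0.548 and 1.12 TPM in the control libraries, with the groups apart and no call (0.59 ± 0.20 (SE), adjusted p = 0.0829). None of the 7 tested Pcdhga genes passed.

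The C-type genes Pcdhgc3, Pcdhgc4 and Pcdhgc5 stand at the end of the Pcdhg array, and Pcdhgc4 is known in the mouse as the isoform needed for neuronal survival. Pcdhgc4 stood at 7.42, 9.21, 7.402 and 4.66 TPM in the shKmt2f libraries, against 9.37, 9.58 and 12.01 TPM in the control libraries. It was the only 1 of the 85 genes in which every shKmt2f library lay below every control library, a pattern found in 8.6% of all genes, and it did not pass the test (-0.49 ± 0.21 (SE), adjusted p = 0.147). Pcdhgc3, the gene just upstream, had 13.6, 13.9, 10.6 and 10.5 TPM in the shKmt2f libraries, against 7.48, 7.32 and 12.5 TPM in the control libraries. Control replicate 3 lay within the shKmt2f range and the other control libraries below it (0.41 ± 0.21 (SE), adjusted p = 0.213). The opposite signs of the neighbours Pcdhgc3 and Pcdhgc4 persisted after correction for GC content, at 0.55 and -0.37, and neither passed then.

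**Figure D4:**
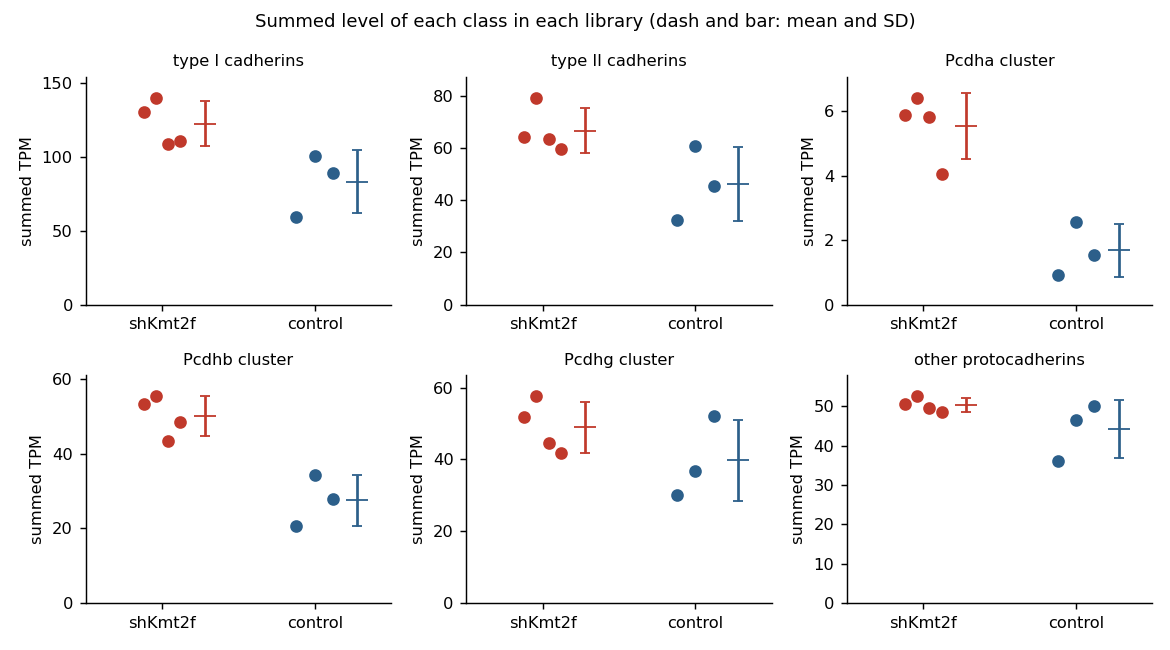
Summed TPM (vertical axis, starting at 0) of 6 classes of cadherins and protocadherins in the 4 shKmt2f libraries (red, left) and the 3 control libraries (blue, right), with a dash and bar for mean and SD. The groups do not overlap for the type I cadherins, the Pcdha cluster and the Pcdhb cluster, and they overlap for the type II cadherins, the Pcdhg cluster and the other protocadherins.

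Genes beside the clusters were examined in the same fit. Within 500000 bases of the clusters, and between them, 20 tested genes that are not protocadherins had a median fold change of -0.03. None rose, and Tmco6 fell (log2 fold change -0.71, adjusted p = 0.0346), beside 10.4% of all tested genes that rose and 3.69% that fell. The part of GC content in the values of these neighbours was not tested. Taf7, which encodes a subunit of the general transcription factor TFIID, did not pass (log2 fold change 0.33, adjusted p = 0.169). On chromosome 18 without cadherins and protocadherins, 41 of 283 tested genes rose, 14.5%.

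Among the classical cadherins, Cdh2 and Cdh11 rose and the other 6 tested genes did not pass. Cdh2 (ENSMUSG00000024304) lies on chromosome 18, on the minus strand between 16588877 and 16809246, far from the protocadherin clusters. It was the most abundant of the 85 genes, at 101, 111, 84.6 and 84.8 TPM in the shKmt2f libraries, against 39.8, 74.8 and 51.8 TPM in the control libraries. The groups did not overlap, with control replicate 2 next to the lowest shKmt2f library, and the fold change was 0.81 ± 0.21 (SE), adjusted p = 0.0377. With no filter on low values its adjusted p was 0.0533. A protein-coding transcript of 3785 bases and 15 exons held 85.1% of its TPM and averaged 81.99 ± 11.2 TPM in the shKmt2f libraries and 46.2 ± 15.2 TPM in the control libraries (exact permutation test, two-sided, p = 0.0286). In the authors' deposited table this transcript had an effect of 0.52 on a natural log scale and q = 0.00733. The 4843-base protein-coding transcript of Cdh2 averaged 9.94 ± 2.02 TPM in the shKmt2f libraries and 6.15 ± 2.85 TPM in the control libraries. There the groups overlapped (exact permutation p = 0.114), and q in the authors' deposited table was 0.252. The Cdh2 transcript with a retained intron averaged 3.51 ± 0.721 TPM in the shKmt2f libraries and 3.07 ± 0.633 TPM in the control libraries (exact permutation p = 0.429).

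Cdh11 (ENSMUSG00000031673), a type II cadherin known from mesenchyme and from developing neural tissue, lies on chromosome 8 between 102632095 and 102785642 on the minus strand. It stood at 43.1, 53.4, 40.9 and 39.6 TPM in the shKmt2f libraries, against 16.03, 35.8 and 21.2 TPM in the control libraries. Control replicate 2 was the highest control library and lay just below the lowest shKmt2f library, and the fold change was 0.90 ± 0.24 (SE), adjusted p = 0.0439. With no filter on low values its adjusted p was 0.0626, and with a prior neither robust nor dependent on the mean 0.0531. Its TPM came in nearly equal parts from a 599-base transcript with a retained intron and from the 5647-base protein-coding transcript of 13 exons. The short transcript averaged 22.3 ± 3.05 TPM in the shKmt2f libraries and 11.2 ± 5.74 TPM in the control libraries (exact permutation p = 0.0286). The coding transcript averaged 21.7 ± 3.23 TPM in the shKmt2f libraries and 13.1 ± 4.67 TPM in the control libraries. Its groups did not overlap either (exact permutation p = 0.0286). In the authors' deposited table q was 0.0449 for the short transcript and 0.0602 for the coding one. Transcript GC content was 44.8% for Cdh2 and 46.4% for Cdh11. In the groups by GC content that hold them, 29.4% and 13.2% of all tested genes rose. After correction for GC content the fold change of Cdh11 was 0.73 (adjusted p = 0.0701) and that of Cdh2 0.54 (adjusted p = 0.0823). Summed levels of pericyte and mesenchyme markers were 1.90 to 2.55 TPM in the shKmt2f libraries, against 0.738 to 1.46 TPM in the control libraries, and the 1 of 3 that was tested, Pdgfrb, did not pass. Of the other 2, too low to be tested, Col1a2 stood at 0.593, 0.718, 1.07 and 0.604 TPM in the shKmt2f libraries, against 0.1199, 0.415 and 0.361 TPM in the control libraries, without overlap. Their part in the level of Cdh11 was not tested.

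The other abundant cadherins did not pass the test. Cdh4, which encodes R-cadherin, the retinal cadherin, stood at 28.8, 28.9, 23.8 and 25.3 TPM in the shKmt2f libraries, against 19.5, 25.8 and 37.3 TPM in the control libraries. The control libraries spanned the whole shKmt2f range (-0.0018 ± 0.20 (SE), adjusted p = 0.996). A share of 51.1% of its TPM came from a 379-base processed transcript, and the 6388-base coding transcript averaged 5.35 ± 0.818 TPM in the shKmt2f libraries and 4.97 ± 0.699 TPM in the control libraries (exact permutation p = 0.486). Cdh20 stood at 10.6, 12.3, 9.69 and 8.25 TPM in the shKmt2f libraries, against 6.85, 10.9 and 10.8 TPM in the control libraries (0.11 ± 0.20 (SE), adjusted p = 0.756). Cdh22 stood at 6.17, 7.99, 6.59 and 5.62 TPM in the shKmt2f libraries, against 6.44, 8.395 and 9.29 TPM in the control libraries (-0.25 ± 0.17 (SE), adjusted p = 0.364). Both are type II cadherins, and in both the groups overlapped. E-cadherin (Cdh1), P-cadherin (Cdh3) and M-cadherin (Cdh15), markers of epithelium and muscle, were at most 0.271 TPM in any library. Cdh9, a type II cadherin chosen after its values were seen, was below the filter at 0.511, 0.312, 0.891 and 0.795 TPM in the shKmt2f libraries, against 0.0481, 0.208 and 0.0412 TPM in the control libraries. In the authors' deposited table its transcript had an effect of 3.12 on a natural log scale and q = 0.00639.

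Of the cadherins outside the classical types, Cdh13 encodes T-cadherin, which is anchored to the membrane by a lipid and has no cytoplasmic part. It stood at 2.29, 3.41, 2.299 and 0.864 TPM in the shKmt2f libraries, against 1.697, 3.33 and 2.299 TPM in the control libraries, with overlapping groups (-0.14 ± 0.29 (SE), adjusted p = 0.789). Cdh16, known from kidney, stood at 2.698, 1.600, 0.462 and 0.924 TPM in the shKmt2f libraries, against 1.996, 1.82 and 2.49 TPM in the control libraries, again with overlap (-0.44 ± 0.29 (SE), adjusted p = 0.341). Cdh17, an intestinal cadherin, was at most 0.11 TPM.

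The protocadherins outside the clusters had a summed level of 50.6, 52.6, 49.5 and 48.5 TPM in the shKmt2f libraries, against 35.97, 46.6 and 50.1 TPM in the control libraries, and the groups overlapped. Pcdh8, also called arcadlin, which takes part in removing N-cadherin from synapses in rat neurons, was the most abundant, at 17.1, 18.9, 19.6 and 15.5 TPM in the shKmt2f libraries, against 14.2, 18.7 and 23.4 TPM in the control libraries. The control libraries surrounded the shKmt2f libraries (-0.06 ± 0.18 (SE), adjusted p = 0.864). Pcdh9 stood at 11.2, 11.9, 6.39 and 9.43 TPM in the shKmt2f libraries, against 6.57, 6.91 and 7.39 TPM in the control libraries, with shKmt2f replicate 3 lowest of all 7 libraries (0.40 ± 0.20 (SE), adjusted p = 0.216). Pcdh19, which is mutated in a form of human epilepsy, stood at 5.17, 6.74, 6.91 and 7.35 TPM in the shKmt2f libraries, against 2.17, 6.902 and 3.99 TPM in the control libraries. Control replicate 2 lay among the shKmt2f libraries and the other controls below them (0.58 ± 0.29 (SE), adjusted p = 0.197). Weighted by TPM, its transcripts were the poorest in GC of these genes, and the fold change was -0.05 after correction for GC content. A 335-base transcript annotated for nonsense-mediated decay held 67.4% of its TPM and so weighed most in both values. With protein-coding transcripts alone, and no correction for GC content, the fold change was 0.38 (limma, adjusted p = 0.131).

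Pcdh11x was the only protocadherin outside the clusters in which every shKmt2f library lay above every control library, at 3.32, 3.04, 2.89 and 3.396 TPM in the shKmt2f libraries, against 2.29, 2.58 and 2.79 TPM in the control libraries (0.23 ± 0.14 (SE), adjusted p = 0.284). Most of its TPM, 81.8%, came from a transcript with a retained intron, at 2.395, 2.28, 2.36 and 2.65 TPM in the shKmt2f libraries, against 2.12, 2.18 and 2.61 TPM in the control libraries, where the groups overlapped (exact permutation p = 0.486). A 5394-base coding transcript had an effect of 1.08 on a natural log scale and q = 0.0187 in the authors' deposited table. The 8607-base coding transcript had q = 0.1996 there, and the transcript with a retained intron q = 0.967. The fold changes of the 10 tested genes of this class lay between -0.08 and 0.58 with a median of 0.18.

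**Figure D5:**
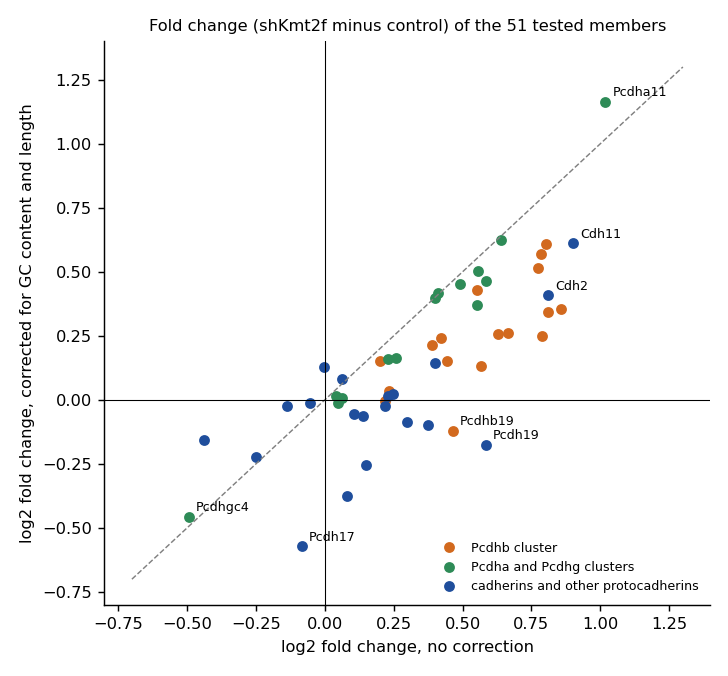
Log2 fold change, shKmt2f minus control, of the 51 tested cadherins and protocadherins without correction (horizontal axis) and after correction of each library for GC content and length (vertical axis), with the line of equal values dashed. Most orange Pcdhb points lie below the dashed line and above 0, Pcdha11 lies at 1.17 after correction, and Pcdhb19 and Pcdh19 are among the points that change sign.

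The authors' deposited table, which holds their own test of single transcripts, listed 156 transcripts of these genes. In it 18 transcripts of the 156, 11.5%, had q under 0.05, all 18 with a positive effect, and 11 of the 18 were Pcdhb transcripts. Over all 55404 transcripts of that table, 3.43% had q under 0.05 with a positive effect and 2.09% with a negative one. That table rests on the same 7 libraries and is no independent measurement. The Pcdhb transcripts included Pcdhb11 (effect 0.82, q = 0.000611), Pcdhb21 (effect 0.79, q = 0.00623) and Pcdhb16 (effect 0.75, q = 0.00683) in the authors' deposited table.

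Genes that act with cadherins were taken from lists chosen with results of these data known. Beside the counts for these lists, 10.4% of all tested genes rose and 3.69% fell. Of 14 tested catenins and junction adapters none passed, and their median fold change was 0.07. Beta-catenin (Ctnnb1), which binds the cytoplasmic tail of classical cadherins, averaged 672 ± 91.7 TPM in the shKmt2f libraries and 624 ± 113 TPM in the control libraries (0.11 ± 0.15 (SE), adjusted p = 0.645), and Arvcf, a catenin of the p120 family, had a fold change of -0.33 ± 0.20 (SE), adjusted p = 0.296. Of 9 tested members of the wider cadherin superfamily none passed, with a median of 0.02. Cdhr1, a photoreceptor cadherin, had a fold change of 0.59 ± 0.20 (SE), adjusted p = 0.0823, and Clstn1, which encodes calsyntenin, of -1.11 ± 0.65 (SE), adjusted p = 0.286.

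Of 15 tested regulators of the clustered protocadherin promoters, 3 rose and none fell, with a median of 0.63. Over all tested genes 10.4% rose and 3.69% fell, shares that also stand beside the effector and cleavage counts below. The median GC content of the regulators was 44.3%, against 50.4% over all tested genes. It lay within the group of lowest GC content, where 29.4% of all genes rose. After correction for GC content none of the regulators passed and their median was 0.29, beside 4.25% of all tested genes that rose. Stag1, a cohesin subunit, averaged 28.7 ± 2.12 TPM in the shKmt2f libraries and 17.7 ± 4.87 TPM in the control libraries (0.69 ± 0.17 (SE), adjusted p = 0.0373). Nipbl, which loads cohesin onto chromatin, averaged 6.32 ± 0.7697 TPM in the shKmt2f libraries and 3.33 ± 1.37 TPM in the control libraries (0.80 ± 0.21 (SE), adjusted p = 0.0426). Smchd1, which represses the clusters in the mouse, averaged 6.37 ± 0.832 TPM in the shKmt2f libraries and 3.59 ± 0.826 TPM in the control libraries (0.69 ± 0.17 (SE), adjusted p = 0.0374). Of 12 tested effectors of protocadherins on actin, 2 rose and none fell, with a median of 0.50. These were Abi1 (1.05 ± 0.25 (SE), adjusted p = 0.0337) and Abi2 (0.90 ± 0.17 (SE), adjusted p = 0.0205), subunits of the WAVE regulatory complex, of which Abi2 alone passed after correction for GC content. Of 8 tested genes of cadherin cleavage and trafficking 1 rose, with a median of 0.15. It was Adam10, the protease that sheds N-cadherin, at 26.7, 30.6, 22.5 and 21.7 TPM in the shKmt2f libraries, against 5.27, 13.5 and 9.16 TPM in the control libraries (1.42 ± 0.27 (SE), adjusted p = 0.0194). Adam10 passed after correction for GC content as well.

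Markers of retinal cell types moved between the groups as well. Over all tested genes 10.4% rose and 3.69% fell, and after correction for GC content 4.25% rose and 3.28% fell. Ganglion cell markers summed to 45.2 to 52.3 TPM in the shKmt2f libraries, against 19.3 to 28.6 TPM in the control libraries. All 6 tested of 12 listed rose, and all 6 passed after correction for GC content too. The other listed ganglion cell markers were too low to be tested. Among them Pou4f1 averaged 0.424 TPM in the shKmt2f libraries and 0.191 TPM in the control libraries, without overlap. In Pou4f2, Ebf3, Sncg, Thy1 and Rbpms the groups overlapped. Photoreceptor markers summed to 684 to 912 TPM in the shKmt2f libraries, against 440.1 to 549.5 TPM in the control libraries, and 3 of 8 tested rose, 2 after correction for GC content. Progenitor markers summed to 985 to 1082 TPM in the shKmt2f libraries, against 1283 to 1459 TPM in the control libraries, and 3 of 10 tested fell. Amacrine markers rose in 2 of 8 tested, with sums of 275 to 316 TPM in the shKmt2f libraries, against 207 to 249 TPM in the control libraries. Horizontal cell markers rose in 2 of 4 tested, 1 after correction for GC content, with sums of 21.2 to 29.0 TPM in the shKmt2f libraries, against 11.9 to 19.4 TPM in the control libraries. The 2 were Ndnf and Onecut1. Onecut1 stood at 0.861, 0.503 and 0.393 TPM in the control libraries, and so passed the filter on low values through the shKmt2f libraries alone. Onecut2 was tested through the shKmt2f libraries alone as well and did not pass the test. Of 4 tested Müller glia markers 1 fell (793 to 937 TPM in shKmt2f libraries, against 751 to 959.8 TPM in control libraries), and the 1 tested bipolar marker did not pass (0.566 to 2.36 TPM in shKmt2f libraries, against 0.389 to 1.39 TPM in control libraries). The part of these cell types in the levels of cadherins and protocadherins was not tested.

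Markers of cells from outside the neural retina were low, with the exception of the endothelial list. Endothelial markers summed to 72.7 to 109 TPM in the shKmt2f libraries, against 62.3 to 105 TPM in the control libraries. Of the 4 present in the tables, Pecam1 and Tie1 stayed under 1 TPM and Kdr and Cldn5 did not pass the test. Of the pigment epithelium markers the 1 tested, Dct, rose but did not pass after correction for GC content, and the list summed to 5.95 to 8.15 TPM in the shKmt2f libraries, against 4.33 to 5.03 TPM in the control libraries. Microglia, astrocyte, lens and epithelium markers summed to at most 1.54, 1.05, 0.232 and 0.782 TPM in any shKmt2f library, against 1.101, 1.01, 0.202 and 1.02 TPM in any control library. Of these lists only 1 microglia marker, C1qa, was high enough to be tested, and it did not pass. Epcam, an epithelial marker too low to be tested, stood at 0.277, 0.2402, 0.306 and 0.4203 TPM in the shKmt2f libraries, against 0.729, 0.515 and 0.596 TPM in the control libraries, without overlap.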

How the data were processed

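The members and gene lists were chosen with earlier results of these data known. RNA of sorted cells was amplified with SMART-Seq v4 from 1 ng, and libraries were made with a Nextera DNA Flex kit, per the labels' protocols. Salmon 0.11.3, sleuth 0.30.0 and build GRCm38.p6 are named in the submitters' processing notes. The series' text gives day 17 where the sample labels give 17.5. The authors deposited 1 table per library with 55475 transcripts, of which 71 had no TPM value, and 55404 were used. Summed TPM per library was 991445 to 992309. Depth is unknown, so no counting interval is given. The p-value, q-value and natural log effect columns that the authors deposited were identical in all 7 tables, and sentences that use them say so.

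TPM was summed per gene. A gene was tested if 3 or more libraries reached 1 TPM. The test was limma 3.58.1 (R 4.3.3), run on log2(TPM + 1) with group alone in the model, a robust prior that depends on the mean, and Benjamini-Hochberg adjustment over 12456 genes. Single transcripts were compared on log2(TPM + 0.1) by an exact permutation test, two-sided, over all 35 splits. The procedure was also run on simulated data, drawn independently for each gene without a shift of whole libraries by GC content. That simulation cannot speak to the dependence of the calls on GC content. Alternatives were other scaling, filters, pseudocounts, corrections for GC content and length (loess, span 0.3), other sums over transcripts (transcripts of at least 1000 bases were chosen after seeing the data), the replicate number as a block, and leaving out each library.

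Positions and transcript sequence are from GENCODE M21 on GRCm38, in which all 156 member transcripts were found and 84 of the 85 gene names matched. Named with values were members past the threshold, the 3 most abundant tested members of each class, and tested members whose groups did not overlap, 26 in all. Pcdha10 and Cdh9 were added after their values were seen. No sequence is printed.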

Additional observations from a re-analysis of the deposited data

Results flagged for a closer look

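Pcdhb4 in the shKmt2f libraries was examined again because 1 library lay far from the other 3. The levels were 1.599, 1.597, 1.65 and 1.31 TPM in shKmt2f replicates 1 to 4, against 0.534, 1.06 and 1.06 TPM in the control libraries. The gap of replicate 4 to the nearest other shKmt2f library, divided by the range of the group, was 0.841, above Dixon's 95% critical value for 4 samples. Chance marks about 1 in 20 groups, and this was 1 of 39 groups examined. Replicate 4 still lay above every control library.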

How the results depend on the processing

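The number of genes that passed was 1755 over all genes and 11 over the cadherins and protocadherins. It was 938 and 1 after correction for GC content, and 699 and 2 once length was corrected for too. With at least 5 TPM in 3 libraries, 3 members passed of 12 tested, fewer genes being tested. All 3 rose, beside 1193 of 9786 tested genes. Leaving out 1 library at a time gave 283 to 3004 genes and 0 to 15 members. All other alternatives kept both counts within 1.5 times, but not always the same genes. With no filter Cdh2, Cdh11, Pcdha11, Pcdhb16 and Pcdhb17 no longer passed (adjusted p from 0.0514 to 0.0626), whereas Cdh9 and Pcdha10 did. Cdh11 missed with a prior neither robust nor mean-dependent (0.0531), and Pcdhb3 with a pseudocount of 0.1 (0.0562).

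Of the 51 tested members 7 changed sign after correction for GC content, 12 after that for length too, and 4 with median-ratio scaling. Among the 26 genes named by the rule these were the following, none past the threshold in either case. Correction for GC content gave -0.010 for Pcdhb19, -0.053 for Pcdh19, 0.098 for Pcdh8 and 0.15 for Cdh4. With the added correction for length the values were -0.12 for Pcdhb19, -0.17 for Pcdh19, 0.13 for Cdh4 and -0.054 for Cdh20. Median-ratio scaling gave -0.0055 for Cdh20, and weighting by length 0.014 for Cdh4. Leaving out a library gave Cdh13 -0.31 to 0.10, Pcdh8 -0.23 to 0.11, Cdh4 -0.22 to 0.23 and Cdh20 -0.092 to 0.21. The cause was not tested.

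Single transcripts kept their direction and their side of the threshold in 212 comparisons, kept only their direction in 106 and changed sign in 10. Without 1 library the exact test cannot reach 0.05. The ranges without 1 library, for the transcripts that changed sign, were -0.61 to 0.16 for the 580-base transcript of Cdh13, -0.51 to 0.0095 for the 620-base transcript of Cdh13, -0.10 to 0.23 for the 4012-base transcript of Cdh20, -0.15 to 0.45 for the 379-base transcript of Cdh4, -0.45 to 0.38 for the 747-base transcript of Cdh4, -0.0090 to 0.19 for the 6388-base transcript of Cdh4, -0.36 to 0.31 for the 576-base transcript of Pcdh8 and -0.18 to 0.68 for the 4000-base transcript of Pcdh8.

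The libraries share replicate numbers across the groups, but same-numbered libraries did not deviate together (correlations of 0.079, 0.065 and 0.060), and shKmt2f replicate 1 correlated best with control replicate 2. Replicate 4 exists only in the shKmt2f group, so a block by replicate number takes that library out of the group comparison. The fold changes with the block thus equal those without shKmt2f replicate 4, as for Pcdhb10, at 0.85 in both. With the block 1377 genes and 8 members passed, Pcdhb3, Pcdhb6, Pcdhb17 and Pcdhgb4 missing and Pcdhb7 gained. Cdh13 (0.10), Pcdh8 (0.0051) and Cdh4 (0.022) changed sign, which is the same result as without that library. Depth is unknown in TPM and limits most the 34 members too low to test.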
